A study of Mus musculus with 9 samples.

Results

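The genes of the major histocompatibility complex (MHC) class II pathway were followed through whole-lung expression arrays of 3 inbred mouse strains. The 9 genes are the chain genes *H2-Aa*, *H2-Ab1*, *H2-Eb1* and *H2-Eb2*, the peptide-editing genes *H2-DMa*, *H2-Oa* and *H2-Ob*, the invariant chain gene *Cd74* and the transactivator gene *Ciita*. They were taken by symbol from the annotation of the array platform. Of the 22180 genes that the platform names on a probeset of their own, 8 are members of this group, with 1 such probeset each. A further probeset of *H2-Oa* also carries the symbol *BC051537* and was kept out of every count of members, with differences to C57BL/6J of -0.09 ± 0.11 in BcA86 and -0.07 ± 0.11 in CSS12 (SE). *Cd74* was not among them, because its probeset also carries the symbol *Mir5107*, a microRNA gene that lies inside *Cd74*, and this probeset was reported under both names and kept out of every count of members. In genomic order on Chromosome 17, the measured class II genes are *H2-Oa*, *H2-DMa*, *H2-Ob*, *H2-Ab1*, *H2-Aa*, *H2-Eb1* and *H2-Eb2*. *Ciita* lies on Chromosome 16 and *Cd74* on Chromosome 18.

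Class II molecules are heterodimers of an alpha and a beta chain that display peptides from endocytosed proteins to CD4+ T cells. They are carried by dendritic cells, macrophages and B cells, and alveolar type II cells of the lung carry them as well. Newly made dimers are held by the invariant chain, whose remnant is exchanged for peptide with the help of H2-DM, a step that H2-O restrains, mainly in B cells. Transcription of nearly all of these genes depends on CIITA, which binds no DNA itself and docks on factors bound to the X and Y boxes of class II promoters.

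The 3 groups compared were naïve, untreated mice, each of 3 different animals with 1 array per animal. BcA86 is a recombinant congenic strain, a mostly C57BL/6J genome with scattered A/J segments, among them segments of Chromosomes 12 and 17. CSS12 is a chromosome substitution strain that carries Chromosome 12 of A/J on C57BL/6J. C57BL/6J is the background strain of both. The A/J markers of BcA86 on Chromosome 17 lie on both sides of the class II genes and none was typed between them, so the question put to the data was whether class II expression sets BcA86 apart from the other strains. Since BcA86 carries A/J segments at many places, a strain difference cannot be assigned to 1 of them. Sex is not given in the labels, and the labels call the animals biological replicates.

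The deposited values are log2 expression values, so that a difference of 1 is a doubling, and 41345 probesets were tested. Medians of the arrays lay between 6.08 and 6.13, and any pair of arrays correlated at 0.986 to 0.993. Markers of lung were present in every mouse, with a summed linear level of 5 genes between 32659 and 36183. Before the results, 2 CSS12 mice have to be set apart. CSS12 replicate 2 had the highest value of the 9 mice in 12 of 13 dendritic cell markers, in 5 of 9 interstitial macrophage and monocyte markers and in 3 of 7 alveolar macrophage markers, against 11.4% of all probesets. CSS12 replicate 3 had the lowest value in 11 of 11 B cell markers and in 5 of 7 T cell markers, against 9.32% of all probesets. None of these lists holds a class II gene. Class II differences that moved most with these mice are given with and without them, as is the B cell list.

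The promoters are shown first, since the X and Y boxes of class II promoters are where CIITA is known to act, and the letters of both cores could be looked for. RefSeq promoters of build GRCm38.p6, which is the C57BL/6J sequence, run from 250 bases before to 50 bases after the start site and were at hand for 6 members. In 5 of these 6, the letters GCAAC, the core of the X box, were followed on the gene's strand within 50 bases by TGATTGG, which holds the inverted CCAAT of the Y box. The same order was found in 78 of 32851 promoters, or 0.237%, and in 0.438% when either strand was allowed. GCAAC alone occurred on either strand in 35.2% and TGATTGG alone in 7.82%. The letters were chosen with the sequences in view, and neither of the *H2-DMa* promoters held the pair. The stretches below lie at chr17:34092291-34092352 (*H2-Oa*, plus strand), chr17:34238806-34238864 (*H2-Ob*, plus strand), chr17:34287855-34287916 (*H2-Aa*, minus strand), chr17:34305764-34305824 (*H2-Eb1*, plus strand) and chr17:34325531-34325591 (*H2-Eb2*, plus strand). They are written 5′ to 3′ on the gene's strand with both cores in capitals.
H2-Oa: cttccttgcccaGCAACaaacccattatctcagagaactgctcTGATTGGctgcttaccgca
H2-Ob: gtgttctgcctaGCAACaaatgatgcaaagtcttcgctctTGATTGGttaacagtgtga
H2-Aa: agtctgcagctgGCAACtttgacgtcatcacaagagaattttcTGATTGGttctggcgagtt
H2-Eb1: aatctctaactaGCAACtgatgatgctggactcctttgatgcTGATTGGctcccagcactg
H2-Eb2: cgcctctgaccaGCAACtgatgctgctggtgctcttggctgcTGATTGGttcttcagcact
The cores were 23 to 26 bases apart in all 5, and the bases between them differed from gene to gene. A match is a description of these letters and not of a bound site.

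None of the 8 measured class II genes passed in BcA86 lungs against C57BL/6J lungs, where 0.375% of all probesets passed at an adjusted p under 0.05 by limma. The count at an unadjusted p under 0.05 was also 0 of 8, against 10.4% of all probesets, and Cyber-T, the test named in the study's methods, called 0 of 8 and 2.45% of all probesets. Differences ran from -0.11 to 0.10 on the log2 scale, with a median of -0.06 over the 8 genes and of -0.0049 over all probesets. The 95% intervals of all 8 lay between 0.70 and 1.51 times the C57BL/6J level, and outside *H2-Eb2* between 0.724 and 1.31 times. Larger shifts of a class II gene in BcA86 lay outside these intervals, and with 3 mice a strain a shift within them could not be told from none.

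The classical chain genes were nearly level in BcA86 and C57BL/6J. *H2-Aa*, the alpha chain of the A molecule, had log2 values of 11.50, 11.57 and 11.57 in BcA86 mice, 11.62, 11.99 and 11.51 in CSS12 mice and 11.56, 11.67 and 11.55 in C57BL/6J mice. All values but 1 lay within a narrow band, and the exception was CSS12 replicate 2. The difference between BcA86 and C57BL/6J was -0.05 ± 0.12 (SE, n = 3 each, 95% interval -0.31 to 0.22). *H2-Ab1*, its beta chain partner, had 11.91, 11.97 and 11.93 in BcA86 mice, 12.09, 12.50 and 11.91 in CSS12 mice and 12.03, 12.09 and 11.91 in C57BL/6J mice. BcA86 and C57BL/6J overlapped here too, with a difference of -0.07 ± 0.14 (SE, 95% interval -0.39 to 0.24).

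*H2-Eb1*, the beta chain of the E molecule, had 10.98, 11.11 and 11.07 in BcA86 mice, 11.14, 11.51 and 11.02 in CSS12 mice and 11.22, 11.15 and 11.11 in C57BL/6J mice. The BcA86 mice all lay below the C57BL/6J mice, although the nearest values of the groups were both 11.11 after rounding. The difference was -0.11 ± 0.12 (SE, 95% interval -0.38 to 0.17, limma adjusted p = 0.798). *H2-Eb2*, a further E beta gene, had 6.15, 6.67 and 6.19 in BcA86 mice, 6.08, 6.59 and 5.69 in CSS12 mice and 6.55, 6.12 and 6.23 in C57BL/6J mice. It was the most scattered member within strains, with an SD of 0.34 against a median of 0.14 over all probesets, and its 3 groups overlapped throughout.

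**Figure D1:**
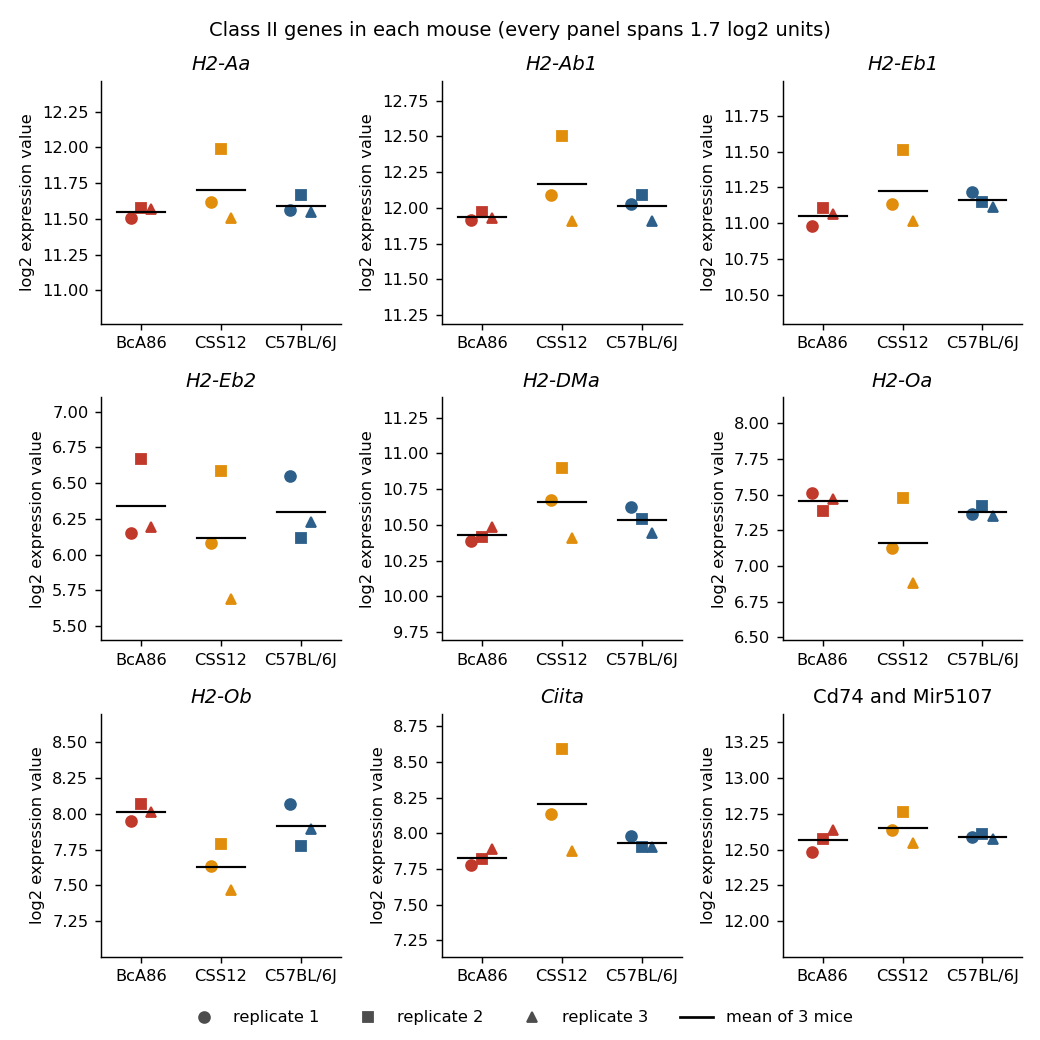
Log2 expression value (y) of the 8 measured class II genes and of the probeset shared by Cd74 and Mir5107 in each BcA86, CSS12 and C57BL/6J mouse, with 1 symbol per mouse and a line at the mean of 3 mice. BcA86 and C57BL/6J lie close together in every panel, and CSS12 replicate 2 (square) is the highest of the 9 mice in H2-Aa, H2-Ab1, H2-Eb1, H2-DMa and Ciita.

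The gene that would be most telling about an A/J class II region is *H2-Ea*, the alpha chain of the E molecule. C57BL/6 mice are known not to transcribe it, because the start of the gene is deleted, whereas A/J mice carry a working copy. Its probeset had log2 values of 5.40, 4.98 and 5.26 in BcA86 mice, 5.17, 4.85 and 5.31 in CSS12 mice and 5.11, 5.15 and 5.34 in C57BL/6J mice. All 9 values were below the medians of the arrays and the strains overlapped. The difference between BcA86 and C57BL/6J was 0.01 ± 0.14 (SE, 95% interval -0.32 to 0.34, limma adjusted p = 0.99), and its sign turned when arrays were weighted or single mice left out. Whether this probeset detects the transcript of an A/J allele was not tested, because A/J lungs were not among the arrays.

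The genes that load and edit peptide gave small differences in BcA86. *H2-DMa*, the alpha chain of the peptide editor, had 10.39, 10.42 and 10.48 in BcA86 mice, 10.67, 10.90 and 10.41 in CSS12 mice and 10.63, 10.54 and 10.44 in C57BL/6J mice. Its difference between BcA86 and C57BL/6J was -0.11 ± 0.12 (SE, 95% interval -0.38 to 0.16), with 1 C57BL/6J mouse inside the BcA86 range. Its beta chains are encoded by *H2-DMb1* and *H2-DMb2*, close copies whose probes may share signal. *H2-DMb1* had 6.64, 6.66 and 6.57 in BcA86 mice, 6.67, 6.97 and 6.51 in CSS12 mice and 6.45, 6.48 and 6.44 in C57BL/6J mice. The C57BL/6J mice were the lowest of all 9, but the difference did not pass in BcA86 (0.17 ± 0.11, SE, limma adjusted p = 0.638) or in CSS12 (0.26 ± 0.11, SE, limma adjusted p = 0.453). *H2-DMb2* had 8.85, 9.01 and 8.85 in BcA86 mice, 8.48, 9.03 and 8.18 in CSS12 mice and 8.89, 8.63 and 8.83 in C57BL/6J mice, and these groups overlapped.

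*Ciita*, the master regulator, had 7.78, 7.82 and 7.89 in BcA86 mice, 8.13, 8.59 and 7.88 in CSS12 mice and 7.98, 7.91 and 7.91 in C57BL/6J mice. The BcA86 mice all lay below the C57BL/6J mice, by -0.10 ± 0.16 on average (SE, 95% interval -0.47 to 0.26, limma adjusted p = 0.859). *Ciita* and *H2-Eb1* were thus 2 of 8 members whose BcA86 and C57BL/6J groups did not overlap, as was the case for 14.4% of all probesets and, with BcA86 lower, for 7.62%. Set against the 6 other mice, BcA86 was lower in *Ciita* by a two-sided exact permutation test (difference -0.24, p = 0.0476, where 84 arrangements allow a smallest p of 0.0238). It was the only 1 of the 8 members with a p under 0.05 in this test, no correction for the 8 tests was made, and the limma adjusted p over all probesets was 0.571. Without CSS12 replicate 2 the difference of BcA86 to the mean of the other strains was -0.14. The probeset of *Cd74* and *Mir5107* had 12.48, 12.57 and 12.64 in BcA86 mice, 12.64, 12.76 and 12.55 in CSS12 mice and 12.59, 12.61 and 12.57 in C57BL/6J mice. BcA86 differed from C57BL/6J here by -0.02 ± 0.07 (SE, 95% interval -0.19 to 0.14), the narrowest interval of the class II genes in this comparison.

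**Figure D2:**
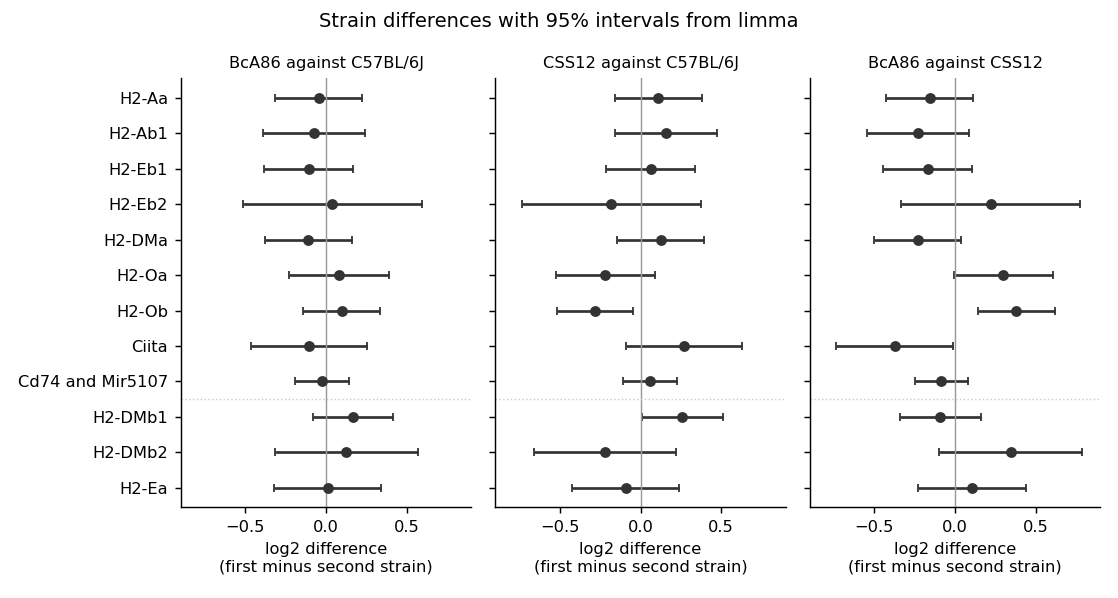
Log2 difference (x, first minus second strain) of the class II genes between BcA86 and C57BL/6J, CSS12 and C57BL/6J, and BcA86 and CSS12, with points for limma estimates, bars for 95% intervals and the 3 related H2 genes below the dotted line. All BcA86 against C57BL/6J intervals cross 0, and among the members H2-Ob is off 0 in both comparisons with CSS12 and Ciita in 1, none of which passed after adjustment.

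Expression in CSS12, whose A/J chromosome holds no class II gene, was more varied from mouse to mouse than in BcA86, with SDs of the 8 genes from 0.16 to 0.45 in CSS12 and from 0.03 to 0.29 in BcA86, a difference in spread that was not tested. None of the 8 members passed against C57BL/6J by limma, where 0.22% of all probesets passed, or by Cyber-T, which called 2.61%. The groups overlapped in all 8, against 15% of all probesets that did not. At an unadjusted p under 0.05, 1 of 8 was found, *H2-Ob*, against 10.7% of all probesets. The comparisons of BcA86 and of CSS12 with C57BL/6J share the C57BL/6J arrays. In CSS12 the genes fell into 2 sets, named here after their values were seen, with *H2-Aa*, *H2-Ab1*, *H2-Eb1*, *H2-DMa* and *Ciita* above C57BL/6J in the mean and *H2-Oa*, *H2-Ob* and *H2-Eb2* below it. Membership of both sets moved with single mice. Without CSS12 replicate 3 the differences of the lower genes were -0.077 for *H2-Oa*, -0.20 for *H2-Ob* and 0.035 for *H2-Eb2*, against -0.22, -0.28 and -0.18 with all mice. Without CSS12 replicate 2 they were -0.37, -0.36 and -0.42 in the same order.

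The differences of the first set fell without CSS12 replicate 2 and rose without CSS12 replicate 3. *Ciita* showed the largest of these differences, with 8.20 ± 0.36 in CSS12 and 7.93 ± 0.04 in C57BL/6J (SD, n = 3 each), or 0.27 ± 0.16 (SE, limma adjusted p = 0.593). Without CSS12 replicate 2 the differences to C57BL/6J were 0.07 for *Ciita*, 0.00 for *H2-DMa*, -0.01 for *H2-Ab1*, -0.03 for *H2-Aa* and -0.08 for *H2-Eb1*. Without CSS12 replicate 3 they were 0.43, 0.25, 0.29, 0.21 and 0.16 in the same order. CSS12 replicate 2 alone was highest in 5 of 8 members, or 62.5%. In the same mouse the 13 dendritic cell markers summed to a linear level of 4907, against 2787 to 3433 in the other 8 mice. The 9 interstitial macrophage and monocyte markers summed to 5944 there, against 4193 to 5174 elsewhere. The alveolar macrophage markers did not move together, since *Chil3*, a chitinase-like protein gene, stood at 12.48 there and at 10.25 to 10.85 elsewhere, whereas *Marco*, a scavenger receptor gene, was at its lowest there, at 6.29 against 6.52 to 6.81. All 7 summed to 8732 in that mouse, against 3696 to 4177 elsewhere, and the 6 without *Chil3*, a choice made after seeing the data, to 3014, against 1853 to 2594. *Itgax*, the integrin chain CD11c of dendritic cells and alveolar macrophages, stood at 10.22 there and at 8.63 to 9.10 elsewhere. *Cxcl9*, a chemokine induced by interferon gamma and singled out after its values were seen, stood at 9.16 there and at 6.41 to 7.46 elsewhere. Of 17 interferon gamma response genes, 9 were highest in this mouse, and of 18 class I and peptide loading genes, 14 were. The part of these cells and signals in the class II values was not tested, and in whole tissue more cells of a type and more RNA per cell cannot be told apart.

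**Figure D3:**
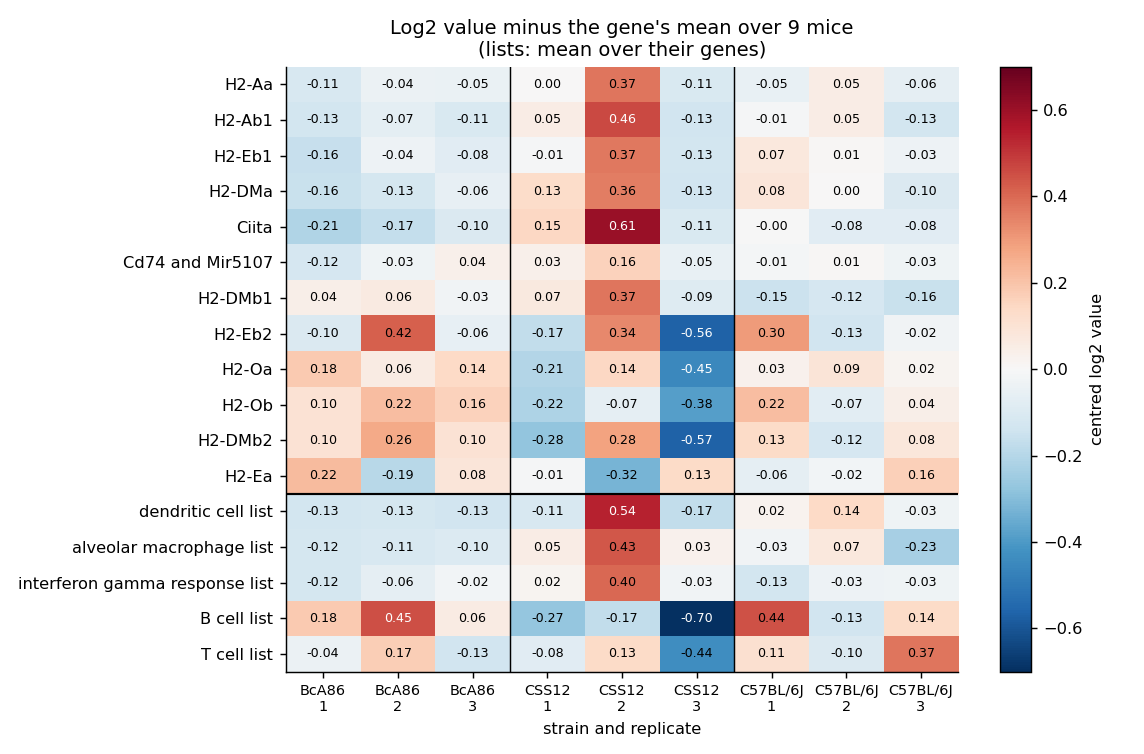
Log2 value minus the mean over 9 mice for each class II gene and, below the line, the mean of the same over the genes of 5 marker lists, for each mouse by strain and replicate. CSS12 replicate 2 is high in the upper genes, by 0.37 in H2-Aa and 0.61 in Ciita, and in the dendritic cell list (0.54), while CSS12 replicate 3 is low in H2-Oa (-0.45), H2-Ob (-0.38) and the B cell list (-0.70).

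The second set held the genes of the H2-O editor, which is known chiefly from B cells. *H2-Ob*, its beta chain, had 7.95, 8.07 and 8.01 in BcA86 mice, 7.64, 7.79 and 7.47 in CSS12 mice and 8.07, 7.78 and 7.89 in C57BL/6J mice. Every BcA86 mouse lay above every CSS12 mouse, while 1 C57BL/6J mouse was inside the CSS12 range. The difference between BcA86 and CSS12 was 0.38 ± 0.10 (SE, 95% interval 0.14 to 0.62), with an unadjusted p of 0.00591 and an adjusted p of 0.161 by limma. By Cyber-T its adjusted p was 0.0123, in a comparison in which that test called 5.26% of all probesets and limma 0.716%. Without CSS12 replicate 3 the difference was 0.30, without CSS12 replicate 2 it was 0.46, and neither passed by limma. *H2-Ob* was 1 of 8 members whose BcA86 and CSS12 groups did not overlap, against 17.7% of all probesets, and 7.82% with BcA86 higher.

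*H2-Oa*, the alpha chain of H2-O, had 7.51, 7.39 and 7.47 in BcA86 mice, 7.13, 7.47 and 6.88 in CSS12 mice and 7.36, 7.42 and 7.35 in C57BL/6J mice. CSS12 replicates 1 and 3 were the lowest of the 9 mice, and CSS12 replicate 2 lay within the BcA86 range. The difference between BcA86 and CSS12 was 0.30 ± 0.13 (SE, 95% interval -0.01 to 0.61, limma adjusted p = 0.438), and it was 0.16 without CSS12 replicate 3 and 0.46 without CSS12 replicate 2. At the probeset that *H2-Oa* shares with *BC051537*, BcA86 and CSS12 were nearly level, at -0.02 ± 0.11 (SE, limma adjusted p = 0.962). Both H2-O genes were close between BcA86 and C57BL/6J, at 0.08 ± 0.13 for *H2-Oa* and 0.10 ± 0.10 for *H2-Ob* (SE). At an unadjusted p under 0.05 by limma, 2 of 8 members were found between BcA86 and CSS12, against 11.9% of all probesets, namely *H2-Ob* with BcA86 higher and *Ciita* with BcA86 lower (-0.37 ± 0.16, SE, limma adjusted p = 0.4). The value of *Ciita* was -0.18 without CSS12 replicate 2. Besides these, Cyber-T gave an unadjusted p of 0.0193 for *H2-Ab1*, 0.0131 for *H2-DMa* and 0.0255 for *H2-Oa*. The share of all probesets under 0.05 by Cyber-T before adjustment was not computed. Against the mean of CSS12 and C57BL/6J, BcA86 had 0 of 8 members past the adjusted threshold, where 0.6% of all probesets passed.

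B cell markers were arranged over the mice much as *H2-Ob* was, but *H2-Oa* had their order only among CSS12 mice. In BcA86 replicate 2, *H2-Oa* was the lowest of the strain and the B cell sum the highest. In C57BL/6J replicate 2, *H2-Oa* was the highest of the strain and the sum the lowest. The 11 markers summed to a linear level of 3580, 4407 and 3332 in BcA86 mice, 2615, 2739 and 1867 in CSS12 mice and 4335, 2773 and 3496 in C57BL/6J mice. All CSS12 mice lay below all others, and replicate 3 was the lowest in every marker. Against C57BL/6J, the median difference of CSS12 over the list was -0.53, and 8 of 11 were lower at an unadjusted p under 0.05, where 5.19% of all probesets were, but 0 of 11 passed after adjustment. *Cd79a*, the signalling chain of the B cell receptor, had the largest difference, with 8.68, 8.53 and 7.98 in CSS12 mice and 9.69, 8.81 and 9.21 in C57BL/6J mice (-0.84 ± 0.26, SE, limma adjusted p = 0.327). Without CSS12 replicate 3, a setting chosen after seeing the data, the median of the list was -0.38, 5 of 11 were lower at an unadjusted p under 0.05 where 3.89% of all probesets were, and *Cd79a* differed by -0.63 ± 0.26 (SE, limma adjusted p = 0.59). Between BcA86 and C57BL/6J the median of the list was 0.04. T cell markers also lay lower in CSS12 than in C57BL/6J, with a median of -0.21 and 0 of 7 above 0. At an unadjusted p under 0.05, 0 of these 7 were lower. Their summed level was likewise lowest in CSS12 replicate 3, at 1077, so the low values of that mouse were not particular to B cell markers. The part of B cells or of other cells in the values of *H2-Oa* and *H2-Ob* was not tested.

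**Figure D4:**
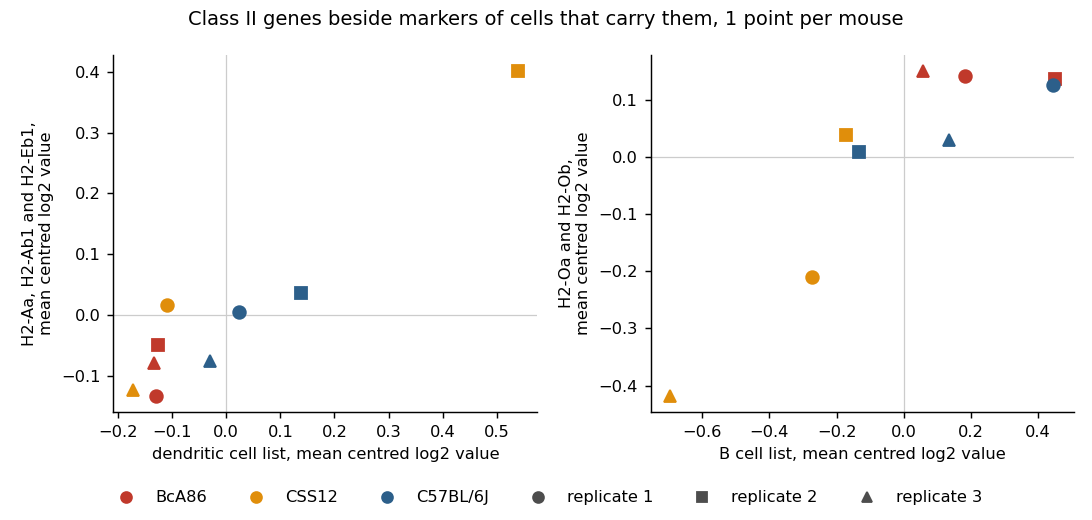
Mean centred log2 value of H2-Aa, H2-Ab1 and H2-Eb1 against that of the dendritic cell list (left), and of H2-Oa and H2-Ob against that of the B cell list (right), with 1 point per mouse, color for strain and shape for replicate. CSS12 replicate 2 stands alone at upper right on the left side, with a list mean of 0.54, and CSS12 replicate 3 at lower left on the right side, with a list mean of -0.70.

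The other genes of the pathway gave no call either. Of 26 listed, 23 were measured, among them the promoter factors of the RFX and NF-Y complexes, cathepsins, the MARCH ligases that remove class II from the surface, and costimulatory molecules. In BcA86 against C57BL/6J, 0 of 23 passed, against 0.375% of all probesets, and the median difference was -0.03. In CSS12 against C57BL/6J 0 of 23 passed, against 0.22%, with a median of 0.03. At such shares a count of 0 is usual in a list of this length. At an unadjusted p under 0.05, 2 of 23 were higher and 0 lower in each of these comparisons, against 10.4% and 10.7% of all probesets in either direction. The nearest to passing, named after its values were seen, was *Lgmn*, which encodes legumain, a lysosomal protease that cuts antigens. It had 10.94, 11.06 and 11.07 in BcA86 mice, 10.92, 11.12 and 10.97 in CSS12 mice and 10.59, 10.64 and 10.66 in C57BL/6J mice. The C57BL/6J mice lay below all 6 others, with differences of 0.39 ± 0.07 in BcA86 (SE, limma adjusted p = 0.0903) and 0.37 ± 0.07 in CSS12 (SE, limma adjusted p = 0.126). BcA86 and CSS12 were nearly level in *Lgmn*, at 0.02 ± 0.07 (SE, limma adjusted p = 0.931). Both strains carry A/J sequence on Chromosome 12, and whether the *Lgmn* values go with it or with the class II pathway was not tested. *Rfx5*, which encodes the subunit of RFX that contacts the X box, differed by 0.22 ± 0.07 between BcA86 and C57BL/6J (SE, limma adjusted p = 0.292). *Ctss*, the cathepsin that trims the invariant chain, had 10.04, 10.21 and 10.08 in BcA86 mice, 10.22, 10.91 and 10.14 in CSS12 mice and 10.42, 10.20 and 10.24 in C57BL/6J mice, and so was again highest in CSS12 replicate 2. In the class I and interferon gamma lists 0 of 18 and 0 of 17 passed in each comparison, against 0.22% to 0.716% of all probesets. At an unadjusted p under 0.05, 4 of 18 and 3 of 17 were higher in CSS12 than in C57BL/6J and 0 lower, against 10.7% in either direction. In BcA86 against C57BL/6J, 1 of 18 and 2 of 17 were higher and 0 lower, against 10.4%.

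Along Chromosome 17, calls were few and none fell on the class II genes or their nearest neighbours. Of 1078 genes placed on the chromosome by RefSeq, 7 passed in BcA86 against C57BL/6J, or 0.649%. The count was 0 of 10 for the class II genes with *H2-DMb1*, *H2-DMb2* and *H2-Ea*, 0 of 5 for the genes between them, such as *Tap1* and *Psmb8* of class I presentation, and 0 of 25 for the nearest genes on each side. At a share of 0.649%, a count of 0 is usual in so few genes, so the counts do not set this stretch apart. The nearest genes that passed were *Hspa1b* and *Hspa1a*, stress-induced chaperones of the class III region, 46 and 47 genes beyond *H2-Oa*. *Hspa1a* had 8.81, 8.05 and 8.09 in BcA86 mice, 8.95, 8.77 and 8.85 in CSS12 mice and 10.69, 11.66 and 10.96 in C57BL/6J mice. It fell by 2.78 ± 0.27 in BcA86 (SE, limma adjusted p = 0.00755) and fell by 2.24 ± 0.27 in CSS12 (SE, limma adjusted p = 0.0264), whose Chromosome 17 is that of C57BL/6J. With only the strains compared in the model, neither *Hspa1a* difference passed, at a limma adjusted p of 0.0664 in BcA86 and 0.0928 in CSS12, and the call in CSS12 was also lost without any 1 of several mice (highest adjusted p = 0.124, without CSS12 replicate 3). The call of *Hspa1b* in BcA86 (limma adjusted p = 0.0261) was likewise lost with only the strains compared, at 0.146, and in 7 of the 9 models that left out 1 mouse (highest adjusted p = 0.118). Of 29 measured genes listed for the class III region, only these 2 passed in BcA86 against C57BL/6J, against 0.375% of all probesets. *Tnxb* of that list, named after its values were seen, had 8.39, 8.21 and 8.10 in BcA86 mice and 8.57 to 8.94 in the other mice. It did not pass against C57BL/6J (-0.55 ± 0.11, SE, limma adjusted p = 0.136) or CSS12 (-0.63 ± 0.11, SE, limma adjusted p = 0.0553). On the side before *H2-Oa*, the 4 genes that passed were *Rsph3b*, *Mpc1*, *Dll1* and *9030025P20Rik*, at places -459 to -394 in gene order with *H2-Oa* as 0, and *Tubb4a* lay at 420 on the side of *Hspa1a*.

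**Figure D5:**
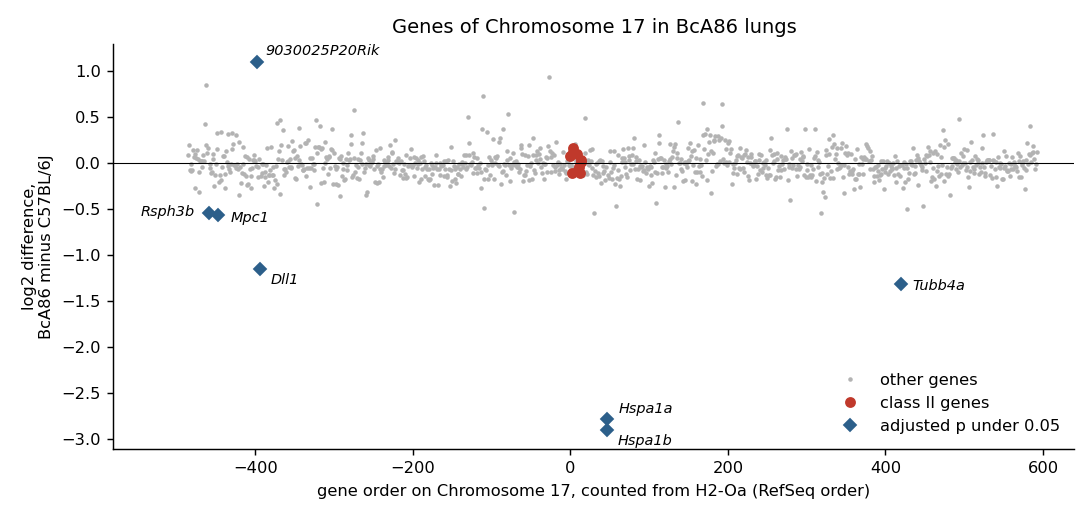
Log2 difference between BcA86 and C57BL/6J (y) of 1078 genes of Chromosome 17 in RefSeq order (x, number of genes counted from H2-Oa), with class II genes in red and genes past an adjusted p of 0.05 as blue diamonds. The class II genes lie near 0, between -0.11 and 0.17, and the 7 genes that passed, of 1078, are not among them.

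Over the 9 mice, the genes most like the class II genes were found by Pearson correlation of each of 22172 genes with the mean of the 8 centred members. They were *Fgf5* (r = 0.961), *Plcb2* (r = 0.949), *Clec4b2* (r = 0.948), *Prkcd* (r = 0.94) and *Clec4a3* (r = 0.938). *Clec4b2* and *Clec4a3* encode C-type lectin receptors of myeloid cells, and *Plcb2* and *Prkcd* encode a phospholipase and a protein kinase of blood cell signalling. *Fgf5*, a growth factor gene, and *Clec4b2* had means of 5.34 and 4.74, both below the medians of the arrays. Without CSS12 replicate 2, on which part of the likeness rested, r was 0.835 to 0.905 over 8 mice. The mean joined genes that did not move together, such as *H2-Aa* and *H2-Ob* (r = -0.12). For the first set alone, the 5 most like genes, led by *Clec4n* (r = 0.971), had 0.670 to 0.851 without that mouse. For *H2-Oa*, *H2-Ob* and *H2-Eb2*, those led by *Sash3* (r = 0.979) had 0.978 to 0.984. The mouse furthest out in this set was CSS12 replicate 3, with a mean centred value of -0.47, against 0.14 in CSS12 replicate 2. No r was computed without CSS12 replicate 3, so the dependence of this likeness on that mouse was not tested. The likeness is a description over mice that share strain and tissue makeup.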

How the data were processed

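Whole-lung RNA of 9 mice, 3 each of BcA86, CSS12 and C57BL/6J, was extracted together per the labels and hybridized to 1 Affymetrix Gene 2.0 ST array per mouse. The authors normalized the arrays by RMA in FlexArray, which corrects background, equalizes the distribution of values between arrays and summarizes probes, and deposited log2 values. The FlexArray version was not given in the sources used here, nor was a genome build. RMA makes array totals alike, so a change shared by most genes would not be seen, and the number of arrays limits the precision. Of 41345 probesets, 23521 had 1 symbol in the platform annotation, 1820 had several and 16004 none. No filter was applied.

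A single limma model (version 3.58.1, R 4.3.3) of the 9 arrays, without a block, gave two-sided p-values, which were corrected across all probesets by the Benjamini-Hochberg method and called under 0.05. The design assumed 9 measured members, and 8 were measured. Cyber-T (window 101, prior weight 10, settings not taken from the methods) was an alternative. The study called probesets at a p under 0.05 together with a cutoff on fold change, a rule not applied here. Single members were tested in Python 3.11.15 with scipy 1.17.1 by exact permutation. The code was tested on simulated data. The members, the gene lists and the alternatives were chosen with earlier results of these data known. All members were named, together with *H2-DMb1*, *H2-DMb2* and *H2-Ea*, list and Chromosome 17 genes that passed, and the 5 genes most like the members, and other names were chosen after their values were seen. Gene order and promoter sequences came from RefSeq tables of GRCm38.p6. Alternatives were Cyber-T, variances with a trend and robust fit, a model of only the strains compared, the replicate number as a block, leaving out dim probesets, centring on the median, array weights, and leaving out each mouse. The B cell list without CSS12 replicate 2 or 3 and the alveolar macrophage sum without *Chil3* were added after seeing the data.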

Additional observations from a re-analysis of the deposited data

How the results depend on the processing

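No class II gene passed under any alternative except *H2-Ob* between BcA86 and CSS12 by Cyber-T, which gave 1 of 8 members. Probesets called numbered 155 for BcA86 against C57BL/6J, 91 for CSS12 against C57BL/6J, 296 for BcA86 against CSS12 and 248 for BcA86 against the mean of the others. In that order Cyber-T gave 1015, 1079, 2173 and 1004, leaving out dim probesets 280, 219, 738 and 451, and a block for replicate number 60, 27, 136 and 130. The block and the dim filter left 0 members called. With the block *Hspa1a* and *Hspa1b* no longer passed in BcA86 against C57BL/6J (limma adjusted p = 0.0533 and 0.112), nor *Hspa1a* in CSS12 against C57BL/6J (0.106). The labels do not say what mice of the same number in different strains share. Correlations of their deviations ran from -0.107 to 0.147, over 0.1 in 2 of 9. For mice of different numbers they ran from -0.212 to 0.133, over 0.1 in 1 of 18. Whether the number marks a batch was not tested. Fitting only the strains compared gave 59, 7 and 62. Trended and robust variances gave 203 for CSS12 against C57BL/6J and 544 for BcA86 against CSS12, where median centring gave 486 and array weights 784. The cause of these shifts was not tested.

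Without 1 mouse at a time, with fewer samples in each model, the counts ran from 70 (without BcA86 replicate 2) to 122, from 10, 49 and 69 (each without CSS12 replicate 3) to 61, 196 and 219, with 0 members throughout, and the members' median from -0.09 to -0.04, -0.06 to 0.19, -0.26 to -0.02 and -0.17 to -0.05. Signs turned in BcA86 against C57BL/6J for *Cd74* and *Mir5107* (-0.061 to 0.015), *H2-Eb2* (-0.13 to 0.17) and *H2-Ea* (-0.082 to 0.12, and -0.015 with array weights). In CSS12 against C57BL/6J they turned for *H2-Aa* (-0.032 to 0.21), *H2-Ab1* (-0.011 to 0.29), *H2-Eb1* (-0.083 to 0.16), *H2-Eb2* (-0.42 to 0.035) and *H2-Ea* (-0.19 to 0.036). In BcA86 against CSS12 they turned for *H2-DMb1* (-0.20 to 0.037) and *H2-Ea* (-0.026 to 0.22), and against the mean of the others for *H2-DMb1* (-0.014 to 0.10), *H2-Eb2* (-0.038 to 0.25) and *H2-Ea* (-0.036 to 0.17). None of these differences had passed. Averaging several probesets of a gene gave no value because each member had 1 with its symbol alone, and *H2-Ea* was itself among the dim probesets. Dim probesets such as *H2-Ea* can understate differences.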
